A study of Mus musculus with 8 samples.

Results

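The feedback regulators of ERK signalling examined here are 9 genes: the phosphatases Dusp4, Dusp5 and Dusp6, the Sprouty genes Spry1, Spry2 and Spry4, the Sprouty-related genes Spred1 and Spred2, and the transcription factor Etv5. Their members are all 26 probe sets that the platform annotation gives to one of these symbols alone, of 45037 probe sets that are not controls on mouse Affymetrix arrays. They are 9 of 18193 genes that have a probe set of their own there. RNA came from cells carrying a GFP reporter for AID, which deaminates antibody genes in activated B cells. There were 4 groups of 2 arrays: BCR-ABL1 bone marrow cells without GFP, BCR-ABL1 bone marrow cells with GFP, splenic B cells given LPS plus IL4 without GFP, and the same splenic cells with GFP. All 4 groups carry the reporter, and the BCR-ABL1 groups also carry the leukaemia oncogene BCR-ABL1, a constantly active tyrosine kinase. Strain, age, time of stimulation, how BCR-ABL1 was introduced, how cells were purified and whether the 2 arrays of a group came from separate animals or cultures were not stated in the labels. The p-values below therefore measure the spread between these arrays, which may be technical.

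ERK is the last kinase of the cascade from RAS through RAF and MEK, and growth factor receptors, antigen receptors and oncogenic tyrosine kinases all feed into it. Active ERK induces its own inhibitors: the dual-specificity phosphatases remove the activating phosphates from ERK, Sprouty and Spred proteins act upstream at the level of RAS and RAF, and ETS factors such as ETV5 carry the transcriptional response. In B lineage leukaemia driven by BCR-ABL1 these regulators are known for limiting ERK activity in pre-B cells, and in mature B cells ERK lies downstream of the antigen receptor and of Toll-like receptors.

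Signals below are array intensities after quantile normalization, with values under 32 set to 32, called the floor. Differences are on the log2 scale with their standard error, from a limma fit of all 8 arrays, and a probe set was called at an adjusted p under 0.05 over all 27022 probe sets tested. Of the 26 member probe sets, 19 passed the filter on dim probe sets, with at least 1 for each of the 9 genes. The other 7 (1 of Spry2, 3 of Spry4, 1 of Spred1 and 2 of Spred2) had signals from 32 to 60.3, and 3 of them were at the floor on all 8 arrays. All 19 had mean values at or above the filter value of 51.0 in both BCR-ABL1 groups, against 13 in the spleen GFP-negative and 18 in the spleen GFP-positive group. A probe set that passed through its BCR-ABL1 signal alone had to be lower in spleen, so counts between the sources carry no weight as support. Levels are compared between groups within a probe set, not between probe sets.

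The labels were checked against marker genes. The pan-B list was above the filter value for 7 of 7 measured genes in the BCR-ABL1 GFP-negative arrays and in both spleen groups, and for 6 of 7 in the BCR-ABL1 GFP-positive arrays, where Ms4a1 was below it. All 7 pre-B markers were above it in both BCR-ABL1 groups, 4 in spleen GFP-negative and 3 in spleen GFP-positive arrays. By level the pre-B marker Igll1 went the other way. Its mean was 598 without and 538 with GFP in BCR-ABL1 cells, against 1997 and 847 in the spleen. The spleen GFP-negative arrays stood apart through genes of other blood cells. Their summed signal of 12 measured myeloid genes ran from 80100.1 to 82140.4, against 578 to 581 in spleen GFP-positive and 857 to 1109 in BCR-ABL1 arrays, and 11 of the 12 were above the filter value. The sum of 10 T and NK cell genes ran from 16039 to 17873, against 1099.6 to 1115 and 1089.6 to 1307, with 10 of 10 above it. In the spleen GFP-positive arrays 3 of 12 myeloid genes (Fcgr3, Lyz2 and S100a9) and 5 of 10 T and NK cell genes (Gzma, Thy1, Cd8a, Nkg7 and Cd5) were above the filter value. There 5 myeloid genes (Camp, Ngp, Csf1r, Itgam and Elane) and 1 T cell gene (Cd3g) were at the floor on both arrays. The part of these cells in the spleen values below was not tested, and in bulk samples fewer cells of a type and less RNA per cell cannot be told apart.

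**Figure D1:**
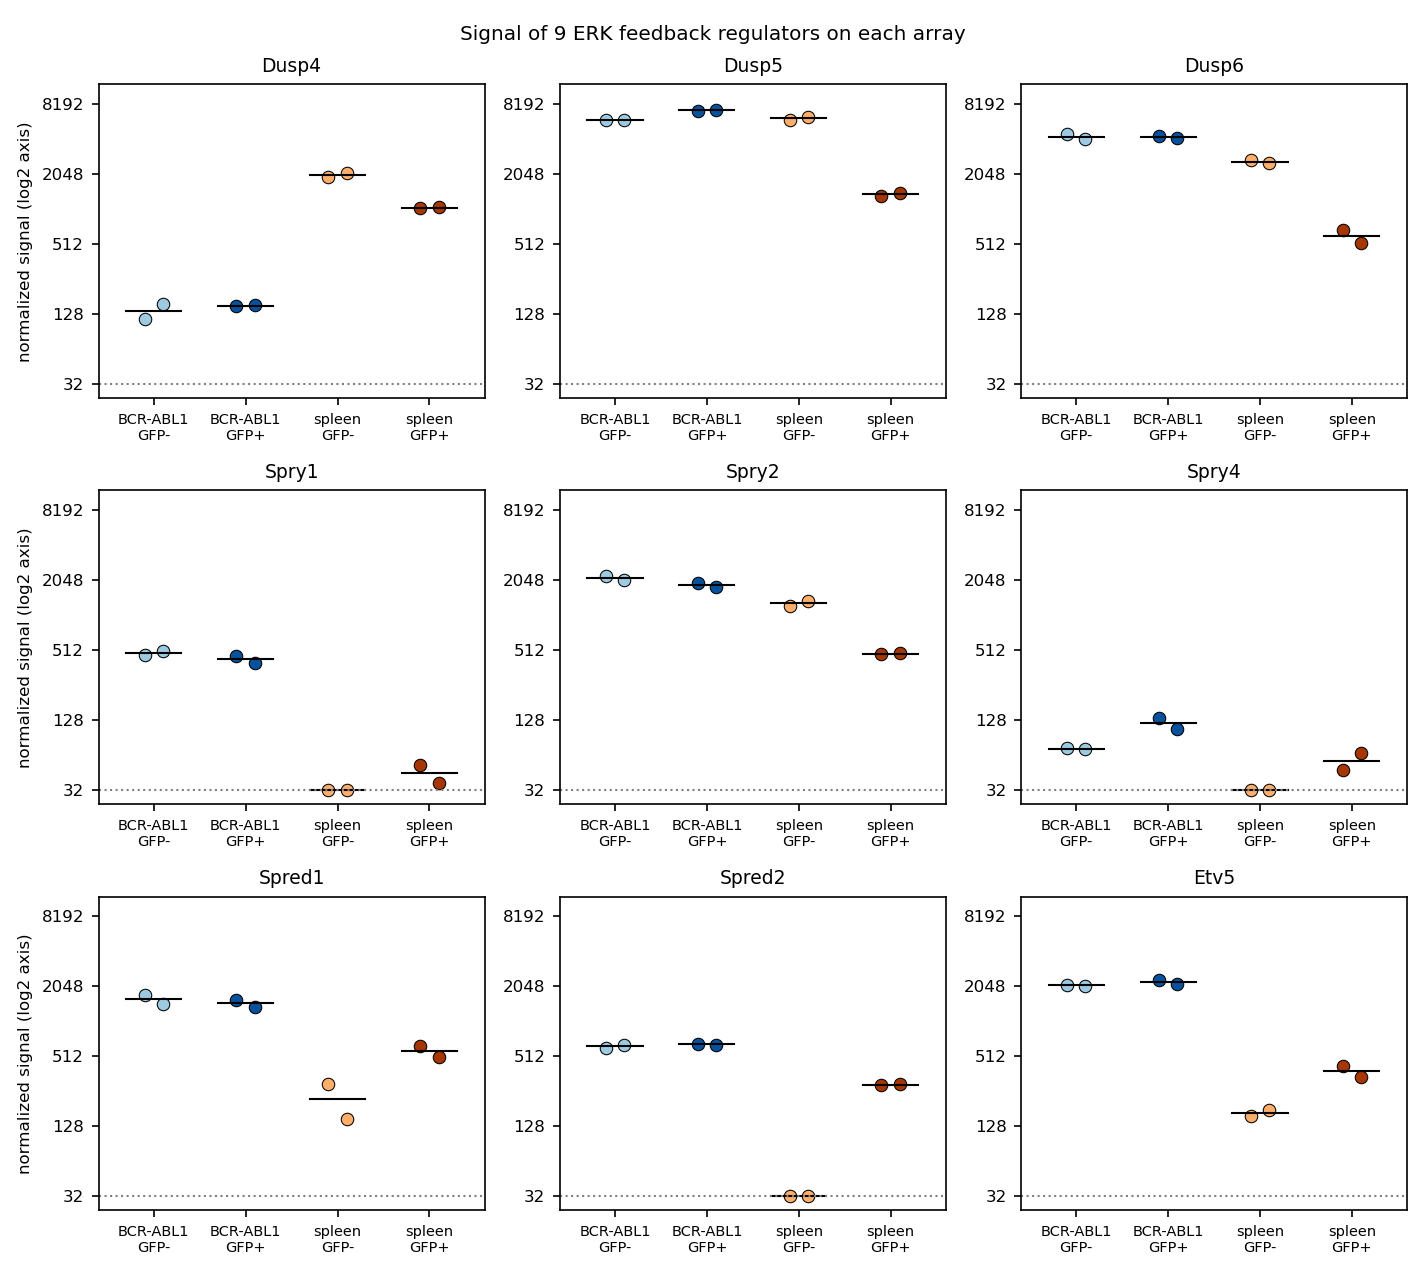
Normalized signal (log2 axis) of each of the 9 genes, by its brightest tested probe set, on the 8 arrays. Points are single arrays, short lines are means of 2 arrays and the dotted line is the floor of 32. BCR-ABL1 arrays lie above both spleen groups for every gene except Dusp4, which is higher in spleen, and Dusp5, whose spleen GFP-negative arrays lie at the BCR-ABL1 level.

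Among the phosphatases, Dusp6, which acts on ERK in the cytoplasm, was highest in BCR-ABL1 cells, lower in splenic cells without GFP and lowest in those with GFP. Its signal was 4462 and 4088 in the BCR-ABL1 GFP-negative arrays, 4363 and 4152 in the BCR-ABL1 GFP-positive arrays, 2689 and 2516 in the spleen GFP-negative arrays and 671 and 516 in the spleen GFP-positive arrays. The 2 BCR-ABL1 groups overlapped, and every other pair of groups was separate. BCR-ABL1 cells exceeded splenic cells 7.24-fold among GFP-positive arrays (2.86 ± 0.12, adjusted p = 6.33e-07, n = 2 arrays against 2, limma) and 1.64-fold among GFP-negative arrays (0.72 ± 0.12, adjusted p = 0.000605). Within the spleen Dusp6 fell 4.42-fold with GFP (-2.14 ± 0.12, adjusted p = 1.06e-06).

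Dusp5, the nuclear phosphatase for ERK, was low in 1 group only, the splenic cells with GFP. Its signal was 5952 and 5945 without and 7086 and 7264 with GFP in BCR-ABL1 cells, and 5928 and 6337 without and 1326 and 1400.4 with GFP in the spleen. The spleen fall was 4.50-fold (-2.17 ± 0.050, adjusted p = 2.16e-08, n = 2 arrays against 2, limma). The GFP-negative groups of the sources overlapped and did not pass the test (-0.04 ± 0.050, adjusted p = 0.443), whereas after arrays were shifted to equal medians BCR-ABL1 was called higher there (0.18, adjusted p = 0.00584).

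Dusp4, a nuclear phosphatase that acts on ERK and other MAP kinases, ran the other way between the sources. Its signal was 114 and 154 without and 148 and 152 with GFP in BCR-ABL1 cells, against 1919.8 and 2076 without and 1036 and 1055 with GFP in the spleen. All 4 spleen arrays lay above all 4 BCR-ABL1 arrays. The BCR-ABL1 signal was 15.0-fold lower among GFP-negative (-3.91 ± 0.15, adjusted p = 1.3e-07, limma) and 6.98-fold lower among GFP-positive arrays (-2.80 ± 0.15, adjusted p = 2.49e-06, n = 2 arrays against 2). With GFP, Dusp4 fell in the spleen (-0.93 ± 0.15, adjusted p = 0.000505), by less in the deposited scaling (-0.57, adjusted p = 0.00451) and with array medians equalised by a shift (-0.41, adjusted p = 0.0250).

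Promoter sequence is shown for Dusp5 and Dusp6, which fell in splenic cells with GFP, and for Spred1 and Spred2, whose brightest probe sets rose there. RefSeq promoters (build GRCm38.p6) were matched for 7 of the 9 genes, and the 150 bases before the annotated start are printed 5′ to 3′ on the gene's strand. Capitals mark matches, on either strand, to 4 motifs searched in the 250 bases before each start. They were TGACGT (the core of the CREB site), CCGGAA (a longer form of the ETS site), TGANTCA (the AP-1 site) and the CArG box (bound by serum response factor). The shorter ETS core GGAA was not searched, so a window without CCGGAA may still hold ETS cores. The 4 motifs were found in 6.47%, 12.03%, 6.75% and 1.47% of 32851 promoters.
Dusp5 (chr19:53528995-53529144, + strand): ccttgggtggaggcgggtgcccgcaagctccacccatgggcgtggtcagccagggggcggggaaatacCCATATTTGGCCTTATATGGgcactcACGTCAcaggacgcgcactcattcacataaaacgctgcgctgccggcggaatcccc
Dusp6 (chr10:99263081-99263230, + strand): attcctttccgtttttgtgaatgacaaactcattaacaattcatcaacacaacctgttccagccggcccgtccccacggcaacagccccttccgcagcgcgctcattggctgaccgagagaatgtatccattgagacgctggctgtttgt
Spred1 (chr2:117120921-117121070, + strand): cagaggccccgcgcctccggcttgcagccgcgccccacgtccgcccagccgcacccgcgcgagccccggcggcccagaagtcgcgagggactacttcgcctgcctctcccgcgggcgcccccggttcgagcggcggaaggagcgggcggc
Spred2 (chr11:19924292-19924441, + strand): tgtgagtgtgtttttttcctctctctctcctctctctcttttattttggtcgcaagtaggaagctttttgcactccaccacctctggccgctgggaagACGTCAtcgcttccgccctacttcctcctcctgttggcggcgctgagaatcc
Dusp5 held 2 adjoining CArG boxes, from 82 to 63 bases before the start, and a TGACGT match from 56 to 51 bases before it. Spred2 held a TGACGT match from 52 to 47 bases before its start. The other printed windows, and the 250 bases searched for Spry1, Spry2 and the 2 annotated starts of Etv5, held none of the 4 motifs. A match is a description of letters in the window, and the arrays do not measure binding there.

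The Sprouty genes were higher in BCR-ABL1 cells than in splenic cells. In the spleen Spry2 fell with GFP, while Spry1 and Spry4 were at the floor without GFP and slightly above it with GFP. Spry2, an inhibitor between receptor tyrosine kinases and RAS, had signals of 2217 and 2017 without and 1929 and 1767 with GFP in BCR-ABL1 cells. In the spleen it had 1227 and 1330.3 without and 471 and 475 with GFP. The 4 groups did not overlap, and Spry2 fell 2.70-fold with GFP in the spleen (-1.43 ± 0.086, adjusted p = 1.72e-06, n = 2 arrays against 2, limma). BCR-ABL1 cells exceeded splenic cells 1.65-fold among GFP-negative (0.73 ± 0.086, adjusted p = 8.38e-05) and 3.90-fold among GFP-positive arrays (1.96 ± 0.086, adjusted p = 8.86e-07). The GFP-negative gap was wider in the deposited scaling (1.15) and with equalised medians (1.27), where the spleen fall was smaller (-0.82). With GFP in BCR-ABL1 cells the value was -0.20 ± 0.086, adjusted p = 0.447, not a call.

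Spry1, an inhibitor of the same family, was high in BCR-ABL1 cells and at or near the floor in the spleen. It had 463 and 498 without and 454 and 390.2 with GFP in BCR-ABL1 cells, 32 and 32 in the spleen GFP-negative arrays, both at the floor, and 52.4 and 36.6 in the spleen GFP-positive arrays. BCR-ABL1 signal was at least 15.0-fold higher among GFP-negative arrays (3.91 ± 0.19, adjusted p = 4.4e-07, limma) and higher among GFP-positive arrays, by 3.27 ± 0.19, adjusted p = 3.88e-06 on the log2 scale (n = 2 arrays against 2) and by 2.57 to 3.53 over its 18 alternatives. The step above the floor within the spleen did not pass (0.45 ± 0.19, adjusted p = 0.0542), but passed without spleen GFP-positive replicate 2 (0.71, adjusted p = 0.00964) and with a floor of 16 (0.96, adjusted p = 0.00145).

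Spry4, the third Sprouty member, was dim in every group. Its 1 tested probe set of 4 had 72.5 and 71.2 without and 133 and 107 with GFP in BCR-ABL1 cells, and 32 and 32 (the floor) and 46.8 and 65.8 in the spleen. The BCR-ABL1 groups did not overlap, but their difference did not pass the test (0.73 ± 0.19, adjusted p = 0.107, n = 2 arrays against 2, limma). It was called with a floor of 64 (adjusted p = 0.0210) and without the 2 spleen GFP-negative arrays (0.79, adjusted p = 0.0465). Within the spleen it was at least 1.73-fold higher with GFP (0.79 ± 0.19, adjusted p = 0.00448), a call lost with a floor of 64 (0.02, adjusted p = 0.897). BCR-ABL1 signal was at least 2.25-fold higher than spleen among GFP-negative arrays (1.17 ± 0.19), also lost with a floor of 64 (0.17, adjusted p = 0.205), and 2.14-fold higher among GFP-positive arrays (1.10 ± 0.19).

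Spred1 and Spred2, which bring the RAS inhibitor neurofibromin to the membrane, were by most of their probe sets high in BCR-ABL1 cells, intermediate in splenic cells with GFP and lowest in splenic cells without it. The brightest Spred1 probe set (1423160_at) had 1704 and 1414 without and 1534 and 1348 with GFP in BCR-ABL1 cells, 291 and 146 in spleen GFP-negative and 624 and 502 in spleen GFP-positive arrays. The BCR-ABL1 groups overlapped and the spleen groups did not. Its spleen rise was 2.71-fold (1.44 ± 0.29, adjusted p = 0.00194, n = 2 arrays against 2, limma), and on the log2 scale 0.94 without spleen GFP-negative replicate 2. Its gap to BCR-ABL1 cells was 2.91 ± 0.29 among GFP-negative and 1.36 ± 0.29, adjusted p = 0.00588 among GFP-positive arrays, the latter not called without spleen GFP-positive replicate 2 (adjusted p = 0.0554).

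Of the 7 tested Spred1 probe sets, which report on 1 gene and are not replicates, 6 rose in the spleen, by 0.46 to 2.92. The largest rise was of 1460116_s_at, from 51.2 and 32, 1 of them at the floor, to 336 and 278. The smallest was of 1423162_s_at (0.46 ± 0.10, adjusted p = 0.00383, limma), which was not called when the 4 spleen arrays were fitted alone (adjusted p = 0.0588). The seventh, 1445228_at, was dim and lower with GFP (92.9 and 59.5 against 60.1 and 55.6, -0.36 ± 0.25, adjusted p = 0.217). All 7 were called higher in BCR-ABL1 than in spleen, by 0.68 to 4.72 among GFP-negative and by 0.97 to 2.09 among GFP-positive arrays. The value of 4.72 is that of 1460116_s_at, which had 1 spleen GFP-negative array at the floor, so its size depends on the floor. The lowest of these, both of 1445228_at, were lost when any of several single arrays was left out: among GFP-negative arrays without BCR-ABL1 GFP-negative replicate 1 (0.44, adjusted p = 0.222), spleen GFP-negative replicate 2 (0.36, adjusted p = 0.251) or spleen GFP-positive replicate 1 or 2 (0.0604 and 0.0605). Among GFP-positive arrays they were lost without BCR-ABL1 GFP-positive replicate 1 (adjusted p = 0.110) or spleen GFP-positive replicate 1 or 2 (0.0605 and 0.0895).

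The 3 tested Spred2 probe sets disagreed. The brightest (1434403_at) had 601 and 637 without and 648 and 631 with GFP in BCR-ABL1 cells, 32 and 32 (the floor) in spleen GFP-negative and 286 and 289.6 in spleen GFP-positive arrays. It was at least 8.99-fold higher with GFP in the spleen (3.17 ± 0.11, adjusted p = 1.24e-07, n = 2 arrays against 2, limma), and at least 19.3-fold higher in BCR-ABL1 than in splenic cells among GFP-negative arrays. Among GFP-positive arrays that gap was only 2.22-fold (1.15 ± 0.11, adjusted p = 8.56e-05, limma). The 3 probe sets ran from 0.85 to 1.15 there, all called higher in BCR-ABL1 cells. The probe set 1436892_at also rose in the spleen, from 34.3 and 32 to 109.7 and 85.9 (1.55 ± 0.17, adjusted p = 5.75e-05), by 0.60 with a floor of 64. The third, 1441802_at, fell there from 194 and 189.5 to 71.6 and 78.2 (-1.36 ± 0.16, adjusted p = 9.84e-05). It was also the only Spred2 probe set not higher in BCR-ABL1 cells among GFP-negative arrays (-0.35 ± 0.16, adjusted p = 0.0829), and it was called lower there without BCR-ABL1 GFP-negative replicate 1 (-0.56, adjusted p = 0.0162). The transcripts each probe set detects are not named in the annotation used.

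**Figure D2:**
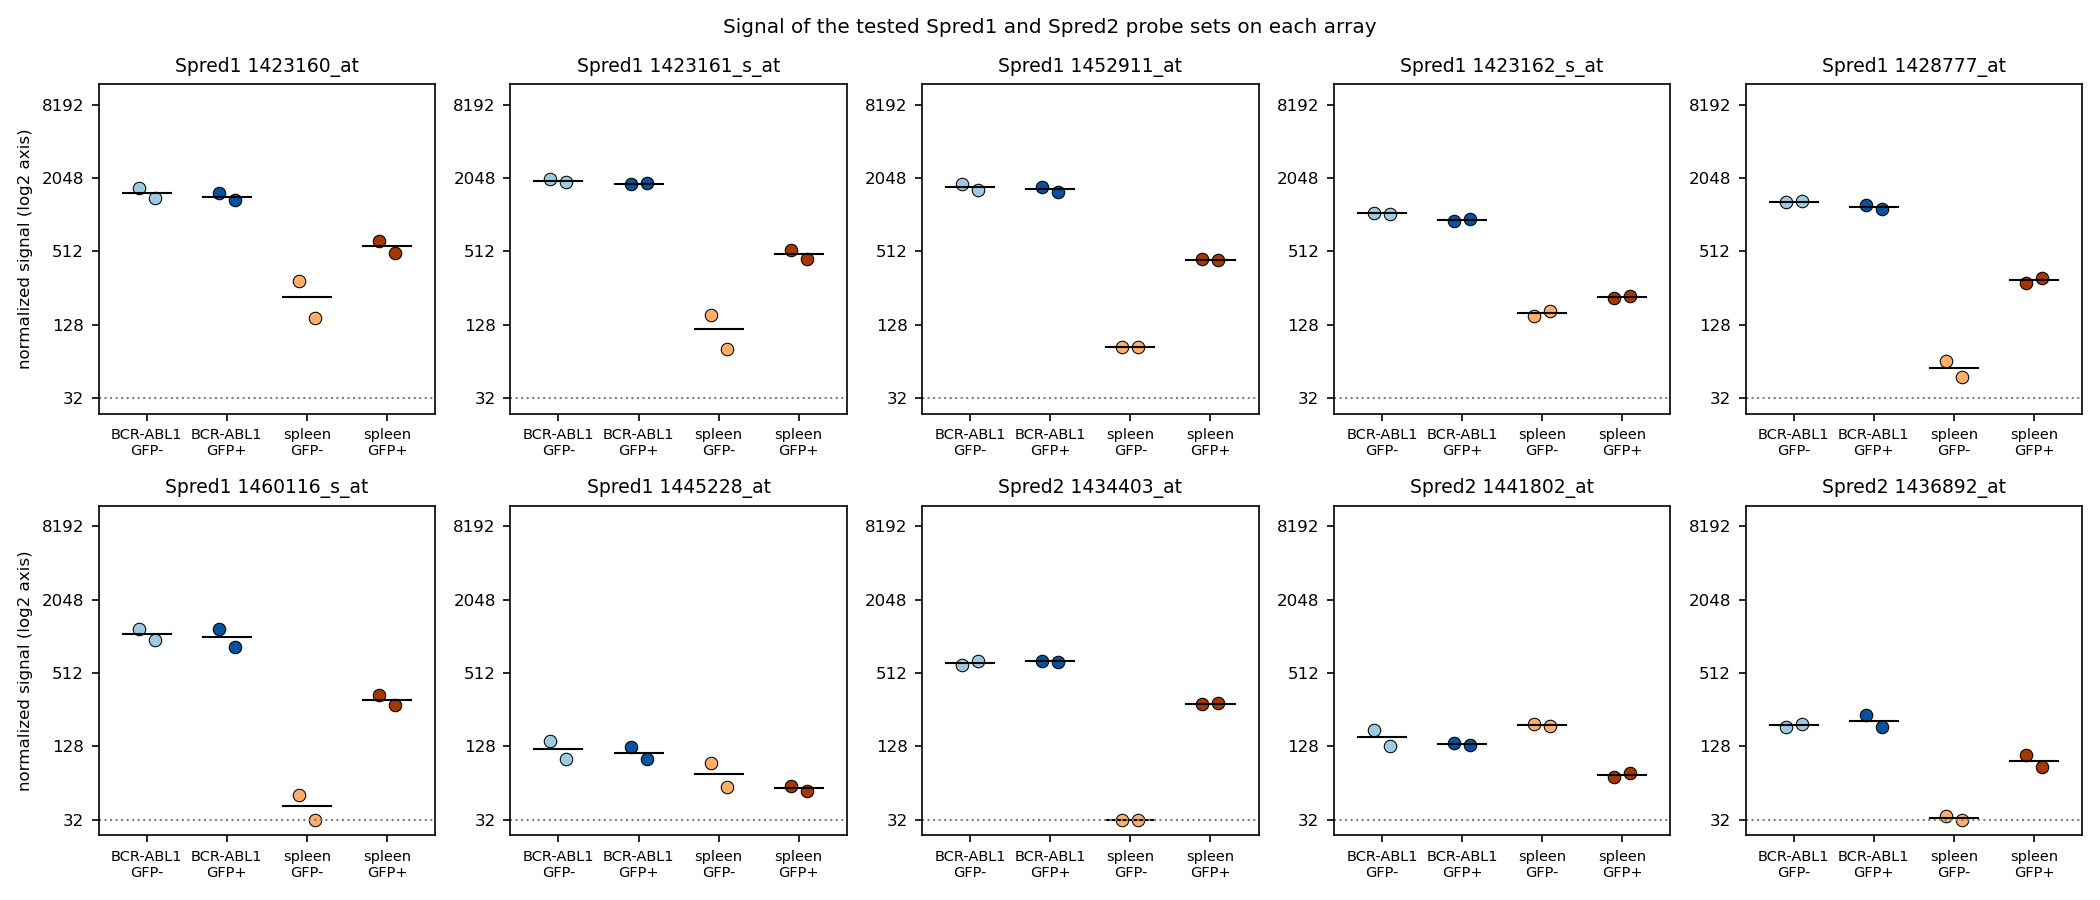
Normalized signal (log2 axis) of the 7 tested Spred1 and 3 tested Spred2 probe sets on the 8 arrays; points are arrays, short lines means of 2, the dotted line the floor of 32. Spred1 1445228_at and Spred2 1441802_at lack the rise from spleen GFP-negative to GFP-positive arrays that the other 8 show.

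Etv5, an ETS transcription factor induced by ERK, was highest in BCR-ABL1 cells and lowest in splenic cells without GFP. Its brightest probe set (1428142_at) had 2097 and 2052 without and 2307 and 2134 with GFP in BCR-ABL1 cells, 155 and 174 in spleen GFP-negative and 417 and 336 in spleen GFP-positive arrays. No groups overlapped. BCR-ABL1 exceeded spleen 12.6-fold among GFP-negative (3.66 ± 0.12, adjusted p = 7.44e-08, n = 2 arrays against 2, limma) and 5.93-fold among GFP-positive arrays (2.57 ± 0.12, adjusted p = 1.51e-06), and Etv5 rose 2.28-fold with GFP in the spleen (1.19 ± 0.12, adjusted p = 4.13e-05). The other 2 probe sets went the same way. In the spleen 1450082_s_at rose from 69.7 and 45.6 to 105 and 97.3 (0.84 ± 0.20, and 0.54 without spleen GFP-negative replicate 2). The probe set 1420998_at rose from the floor on both arrays to 85.5 and 109.8 (1.60 ± 0.15, 0.60 with a floor of 64 and 2.51 with a floor of 16).

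Between BCR-ABL1 and splenic cells, Dusp4 was the only gene whose brightest probe set was lower in BCR-ABL1 cells in both fractions. The counts that follow are descriptions, since 6 of the 19 probe sets were under the filter value in spleen GFP-negative arrays and Spry1 in both spleen groups. Among GFP-positive arrays, whose myeloid and T cell sums were low in both sources, 18 of 19 member probe sets were called higher in BCR-ABL1 cells and 1 lower (median 1.92). Of all probe sets tested, 44% were called in that comparison, 22.4% higher and 21.6% lower, with a median of -0.026. Groups did not overlap for 19 of 19, against 77.3% of all probe sets. Without the 2 spleen GFP-negative arrays in the normalization and the fit, 21 member probe sets were tested and 18 were called higher and 1 lower. The share of all probe sets called in that smaller fit is not given, and the shares above come from the fit of all arrays. That count therefore has no share to be read against. Among GFP-negative arrays 16 of 19 were called higher and 1 lower (median 2.91), against 78.9% of all probe sets called, 45.5% higher and 33.4% lower, with a median of 0.17. There the groups did not overlap for 18 of 19, against 87.6% of all probe sets. The 2 spleen fractions enter these comparisons and the reporter comparison in the spleen, which therefore share arrays. Tissue of origin, BCR-ABL1 and stimulation cannot be told apart in either comparison. Among GFP-negative arrays, the myeloid and T cell signals of the spleen fraction cannot be told apart from these either.

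**Figure D3:**
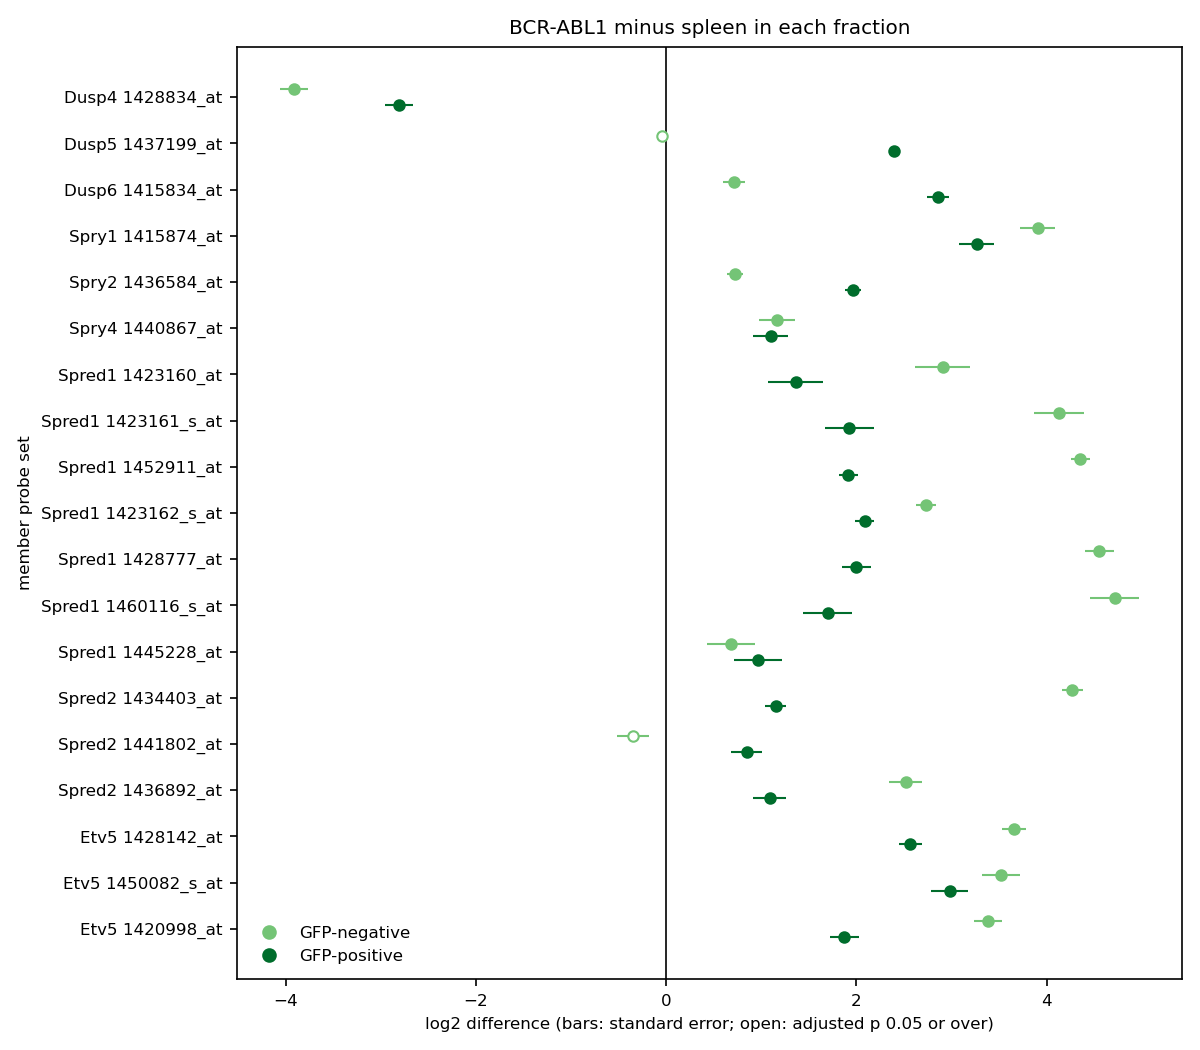
Log2 difference between BCR-ABL1 and splenic cells for the 19 tested member probe sets, within GFP-negative (light) and GFP-positive arrays (dark). Bars are standard errors, and open points had an adjusted p of 0.05 or over. All GFP-positive differences lie above 0 except that of Dusp4 at -2.80.

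The reporter comparison in the spleen split the regulators. Dusp5, Dusp6, Dusp4 and Spry2 fell with GFP, while Spred1, Spred2, Spry4 and Etv5 rose by their brightest probe sets. In all, 12 of 19 member probe sets were called higher and 5 lower, against 78.2% of all probe sets called (44.9% higher and 33.3% lower), so the share called is near that of the whole array. Groups did not overlap for 18 of 19, against 86.1%. Most calls of the whole array rose, by a share that moved with the scaling: 57.4% of calls were higher after quantile normalization, 65.2% on the deposited scale, and 71.1% once array medians were equalised by a shift. Over all probe sets the median was 0.17, 0.35 and 0.51 on these scales. Relative to the median of 0.17, Dusp5 stood at -2.34, Dusp6 at -2.32, Spry2 at -1.60, Dusp4 at -1.10, Spred1 at 1.27 and Etv5 at 1.02. These differences move with the myeloid and T cell signals given above, and their part was not tested.

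In BCR-ABL1 cells the reporter fractions were close, and Dusp5 alone was called. It was higher with GFP by 1.21-fold (0.27 ± 0.050, adjusted p = 0.032, n = 2 arrays against 2, limma), with both GFP-positive arrays above both GFP-negative ones. The call was lost without each of the 4 BCR-ABL1 arrays (adjusted p from 0.189 to 0.286), with the 4 BCR-ABL1 arrays fitted alone (0.0626), without the filter (0.0970) and without the trend in the variance (0.179), at values from 0.25 to 0.29. The 1 of 19 member probe sets called compares with 2.8% of all probe sets (1.57% higher and 1.23% lower), and 2 of 19 had an unadjusted p under 0.05. The other 18 ran from -0.20 to 0.73, with standard errors up to 0.29, so small differences could not be seen. Groups did not overlap for 10 of the 19, against 46.4% of all probe sets. Tested directly, the GFP effect differed between the sources for 15 of 19 member probe sets (5 with a higher and 10 with a lower effect in BCR-ABL1 cells), against 69.8% of all probe sets (29.5% and 40.3%). The exceptions were Spry1 (-0.64 ± 0.26, adjusted p = 0.0592), Spry4 (-0.07 ± 0.26, adjusted p = 0.835), 1 dim Spred1 probe set (0.29 ± 0.36, adjusted p = 0.492) and Etv5 1450082_s_at (-0.54 ± 0.28, adjusted p = 0.117). The last was called without spleen GFP-negative replicate 1 (-0.85, adjusted p = 0.00434), and Spry1 without spleen GFP-positive replicate 2 (-0.90, adjusted p = 0.0123). With 2 arrays against 2, an exact permutation test of a single probe set cannot go below p = 0.333, so each call rests on the spread pooled over the array by limma.

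**Figure D4:**
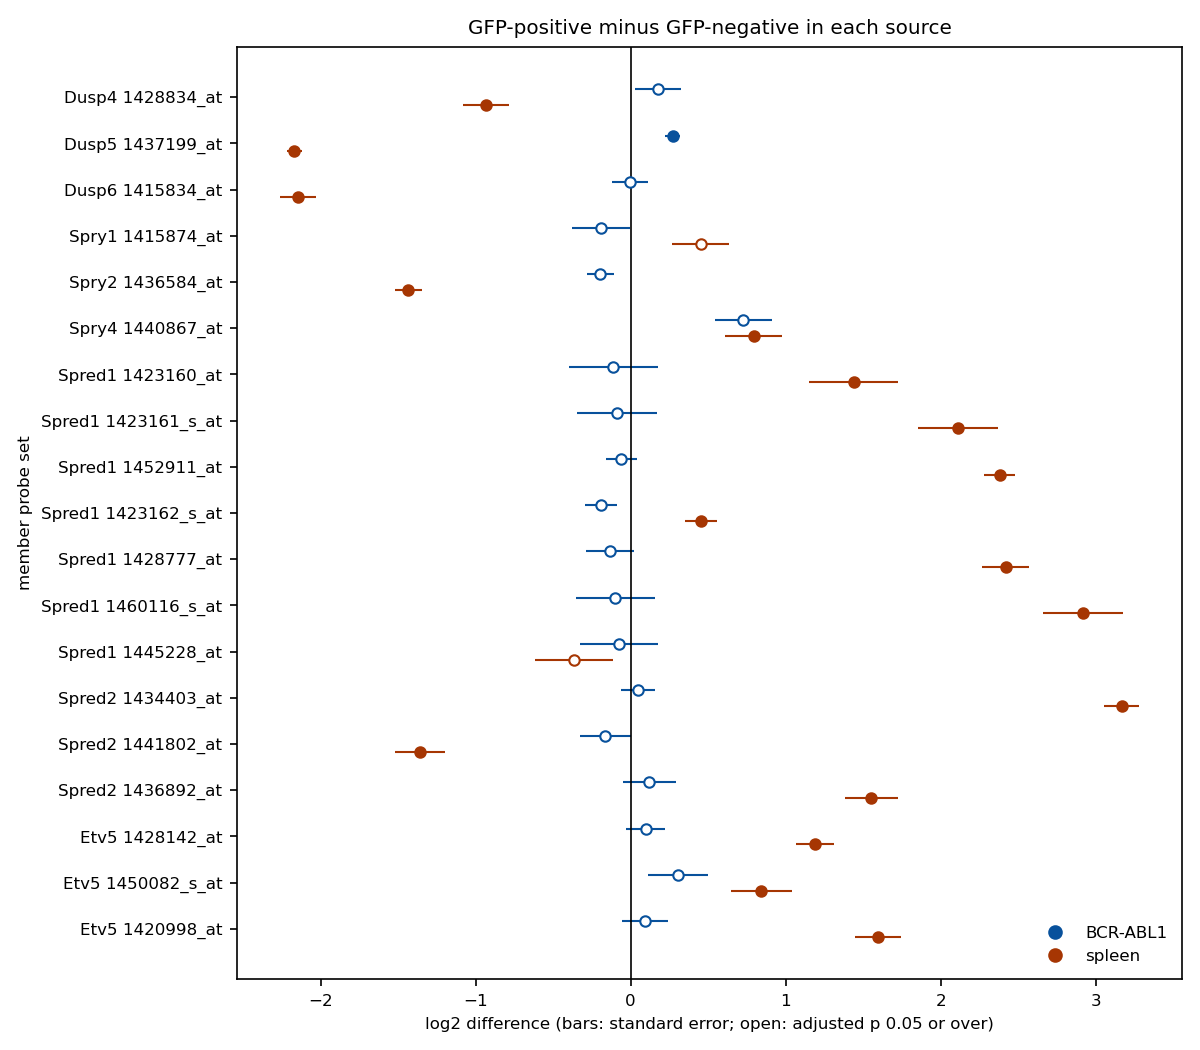
Log2 difference between GFP-positive and GFP-negative arrays for the 19 tested member probe sets, in BCR-ABL1 cells (blue) and splenic cells (brown). Bars are standard errors, and open points had an adjusted p of 0.05 or over. BCR-ABL1 values run from -0.20 to 0.73, while spleen values run from -2.17 to 3.17.

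Ordered by level, the 2 BCR-ABL1 groups were neighbours whose difference did not pass the test, for every gene except Dusp5 (limma adjusted p from 0.107 for Spry4 to 1 for Dusp6, Spred1 and Spred2, by brightest probe set). For Spred1, Spred2, Etv5, Spry1 and Spry4 the order was BCR-ABL1, then spleen GFP-positive, then spleen GFP-negative. In it Spry4 of BCR-ABL1 GFP-negative and spleen GFP-positive arrays did not differ beyond their spread (adjusted p = 0.146), nor did Spry1 of the 2 spleen groups. For Dusp6 and Spry2 the 2 spleen groups stood in reverse order, with GFP-positive arrays last. Neighbours from different sources and fractions were tested too, and 43.7% of all probe sets were called between BCR-ABL1 GFP-negative and spleen GFP-positive arrays and 79.5% between BCR-ABL1 GFP-positive and spleen GFP-negative arrays. Dusp5 ran from BCR-ABL1 GFP-positive through spleen GFP-negative and BCR-ABL1 GFP-negative arrays, whose difference did not pass, to spleen GFP-positive arrays.

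Other genes of the pathway were read from 4 lists holding 78 genes, of which 62 were tested. The shares to read the spleen counts against are those of all probe sets, 44.9% called higher and 33.3% lower, and in BCR-ABL1 cells 1.57% and 1.23%. Of 19 tested genes of the cascade, from adaptors to ERK substrates, 3 were called higher and 8 lower in splenic cells with GFP (median -0.25, n = 2 arrays against 2, limma). The RAS activators Rasgrp2 (2606 ± 195 to 672 ± 7.35, -1.95 ± 0.082), Rasgrp3 (-1.71 ± 0.100) and Rasgrp1 (-1.34 ± 0.058) fell, and so did the kinase Braf (-1.22 ± 0.090). The scaffold Ksr1 rose from 381 ± 58.1 to 1035 ± 62.6 (1.45 ± 0.13). In BCR-ABL1 cells Rasgrp3 fell from 108 ± 2.42 to 47.2 ± 0.174 (-1.19 ± 0.100) and the adaptor Gab1 rose from 595 ± 1.25 to 923 ± 7.80 (0.63 ± 0.12), the only 2 of 19 called.

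Among other RAS and ERK inhibitors 4 of 16 were called higher and 8 lower in the spleen (median -0.41), a share called near the 78.2% of all probe sets. The adaptor Dok3 (-2.03 ± 0.092), the RAS GTPase activators Dab2ip (-1.74 ± 0.15) and Rasa3 (-1.13 ± 0.047) and the ubiquitin ligase Cblb (-1.58 ± 0.054) fell. Rasal1, which like Dab2ip and Rasa3 inhibits RAS by activating its GTPase, rose (1.17 ± 0.15). Rasa3 was the only 1 of 16 called in BCR-ABL1 cells, where it rose (0.26 ± 0.047). Of 8 other MAP kinase phosphatases 1 was called higher and 6 lower in the spleen (median -0.71), against 44.9% and 33.3% of all probe sets, among them Dusp2, from 1580.1 ± 5.50 to 601 ± 40.5 (-1.40 ± 0.091), and Dusp1, from 4233 ± 69.3 to 1679 ± 92.2 (-1.33 ± 0.063). Ptpn5 (-1.23 ± 0.24), Dusp9 (-0.80 ± 0.18) and Dusp10 (-0.62 ± 0.13) also fell there. None of the 8 was called in BCR-ABL1 cells by limma, with 2 at an unadjusted p under 0.05.

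ERK response genes and ETS factors went both ways in the spleen (5 of 19 called higher and 12 lower, median -0.71), against 44.9% and 33.3% of all probe sets. The ETS factor Elk1 rose from 184 ± 10.3 to 776 ± 37.5 (2.08 ± 0.12), while Etv4, of the same ETS subfamily as Etv5, fell from 198 ± 29.1 to 56.2 ± 7.14 (-1.81 ± 0.18). The growth factor Hbegf, from 269 ± 169 to 34.8 ± 2.50 (-2.80 ± 0.38), and the early response gene Ier3 (-1.53 ± 0.20) fell too. The cytokine Lif rose from 35.6 ± 5.06 to 125 ± 1.77 (1.81 ± 0.14). The spleen GFP-negative arrays of Hbegf differed widely. The lower signals of Hbegf and Lif lay near the floor, so the sizes of their differences depend on it. In BCR-ABL1 cells Egr1, an early response gene, fell from 2417 ± 115 to 1182 ± 39.6 (-1.03 ± 0.065), and Lif rose from 635 ± 43.8 to 1279 ± 101 (1.01 ± 0.14), the only 2 of 19 called there. Over all probe sets the median was 0.17 in the spleen and -0.0023 in BCR-ABL1 cells.

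Genes most like a member were taken for the 3 genes whose brightest tested probe sets had the widest range of group means, by the root mean square difference of centred log2 values over the 8 arrays, among 22552 probe sets. For Spred2 they were the survival gene Bcl2l1 (0.0695), the glycolytic gene Aldoc (0.113) and Gpsm2 (0.113). For Dusp4 they were D7Ertd128e (0.138), and the transcriptional regulators Pou2f2 (0.206) and Satb1 (0.206). For Spry1 they were Txnrd3 (0.142), the haematopoietic repressor Gfi1b (0.164) and Tmem255a (0.188). The brightest Spred2 probe set and that of Bcl2l1 were both at the floor in spleen GFP-negative arrays, and the floor fixes that part of their likeness. The same holds for Spry1 and Tmem255a. D7Ertd128e was at the floor of 32 in both BCR-ABL1 groups, so its likeness to Dusp4 depends on the floor.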

How the data were processed

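The data are 8 mouse Affymetrix arrays, 2 in each of 4 groups. The authors deposited 1 linear signal intensity per probe set, made with GCOS 1.3 per the submitters' processing notes; the summary and scaling settings and a genome build are not stated in the labels. The 2%-trimmed array mean ran from 477 to 594, and the number of arrays limits the precision. Of 45101 probe sets 64 controls were left out. Intensities were quantile normalized, raised to a floor of 32 and put on the log2 scale. Probe sets in the lowest 40% by mean were dropped, and 27022 were fitted with limma 3.58.1 in R 4.3.3 (lmFit, contrasts, eBayes with trend, 4 groups, 4 residual degrees of freedom, Benjamini-Hochberg adjustment). The fit was tested on simulated data.

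Symbols came from the platform annotation (34945 probe sets with 1 symbol, 932 with several, 9160 with none). Named are all members; of 4 pathway lists, each gene by its brightest tested probe set, the 5 called genes with the largest GFP difference in a source; the 3 genes most like each of the 3 member genes of widest range, by brightest tested probe set; and markers. Exceptions are said to be so. Members and lists were chosen with earlier results of these data known. Alternatives covered scale, floor, offset, filter, variance trend, gene summary, replicate block, arrays in the fit and each array left out. Leaving out the spleen GFP-negative arrays, and the order of group means under other settings, were chosen after seeing the data.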

Additional observations from a re-analysis of the deposited data

Results flagged for a closer look

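Difference of the GFP effects between the sources. For 15 member probe sets the reporter effect in BCR-ABL1 cells minus that in splenic cells passed limma's test of the difference itself (adjusted p under 0.05, n = 2 arrays a group). It was above 0 on the log2 scale for Dusp5 (2.44), Dusp6 (2.14), Spry2 (1.24), Dusp4 (1.11) and Spred2 1441802_at (1.20), all of which fell with GFP in the spleen. With array medians equalised it was 0.65 for Spry2 (0.80 in the deposited scaling) and 0.63 for Dusp4. It was below 0 for Spred2 1434403_at (-3.12) and 1436892_at (-1.43), and for Etv5 1420998_at (-1.51) and 1428142_at (-1.09), which rose there. Both spleen GFP-negative arrays of Spred2 1434403_at were at the floor, and its difference ran from -3.98 to -2.12 over 18 alternatives. With a floor of 64 that of Spred2 1436892_at was -0.48 and not called (adjusted p = 0.0883), and with log2 of the value plus 32 it was -0.94. That of Etv5 1420998_at was -0.51 with a floor of 64 and -2.42 with a floor of 16. For Spred1 it was -3.02 (1460116_s_at), -2.55 (1428777_at), -2.44 (1452911_at), -2.20 (1423161_s_at), -1.55 (1423160_at) and -0.65 (1423162_s_at). That of 1460116_s_at, which had 1 spleen GFP-negative array at the floor, ran from -3.35 to -2.35 over 17 alternatives. Of all probe sets 69.8% were called in this test, and the share of the myeloid and T cell signals of the spleen GFP-negative arrays in it was not tested.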

How the results depend on the processing

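Over all combinations of a member probe set and an alternative, a result was counted as kept if it stayed on its side of the threshold. A called result also had to keep its direction. Kept were 355 of 364 for the GFP effect in BCR-ABL1 cells, 338 of 345 for that in the spleen and 319 of 326 for their difference. Between the sources 318 of 326 were kept among GFP-negative and 339 of 345 among GFP-positive arrays. Differences that were not called could change sign, as did the GFP effect of Dusp4 in BCR-ABL1 cells (0.17, and -0.041 to 0.39 over its alternatives). Calls lost that are not given above are those of Spred1 1423160_at without the filter (difference of GFP effects, adjusted p = 0.0653; sources among GFP-positive arrays, 0.0569) and of Spred1 1445228_at without the filter (sources, 0.128 and 0.0880). Not given above, Spred1 1423162_s_at rose in the spleen by 0.77 after the shift to equal medians, and Spred2 1436892_at differed between the sources among GFP-negative arrays by 1.57 with a floor of 64. Against a count of 1 for the GFP effect in BCR-ABL1 cells there were 2 with a floor of 64, 0 without the filter, 0 without the variance trend, 0 with the 4 BCR-ABL1 arrays alone, 2 without the spleen GFP-negative arrays, and 0 to 1 with an array left out. The fit of the brightest probe set per gene tested 9 members, and its share of all genes called is not given. In the main fit the shares of all probe sets called were 78.2% (GFP in the spleen), 69.8% (difference), 78.9% (sources, GFP-negative) and 44% (sources, GFP-positive). Counts in the fit per gene were 9 (GFP in the spleen, 17 of 19 otherwise), 7 (difference, 15), 8 (sources, GFP-negative, 17) and 9 (sources, GFP-positive, 19). With an array left out these 4 counts ran from 17 to 18, 15 to 16, 16 to 17 and 17 to 19, and 12 to 19 of 19 probe sets held the order of group means, 12 without BCR-ABL1 GFP-negative replicate 1. Dusp5 of the sources among GFP-negative arrays reversed to 0.18 after the shift to equal medians, and the Spry4 difference of GFP effects to 0.71 (adjusted p = 0.00624) with a floor of 64; the cause was not tested. The labels share replicate numbers but do not say whether these mark pairs, and 2 pairs are too few to show it. With the replicate block the 5 counts were 1, 17, 15, 17 and 19. Deviations of same-numbered arrays correlated at 0.11 to 0.27, above 0 in every comparison made. Signals near 32 cannot be ordered.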

Other observations

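Several early response genes ran opposite to Dusp5, Dusp6 and Etv5 between the sources among GFP-positive arrays. They were chosen after their values were seen, from the list of ERK response genes and ETS factors, of which 5 of 19 were called higher and 8 lower in BCR-ABL1 cells (median -0.031), against 22.4% and 21.6% of all probe sets (median -0.026). The zinc finger factor Egr2 had 32.5 ± 0.750 in BCR-ABL1 and 806 ± 38.6 in splenic cells (SD, n = 2, log2 difference -4.63 ± 0.16, adjusted p = 2.79e-07, limma). Its BCR-ABL1 signal lay next to the floor of 32, so the size of that difference depends on the floor. The Egr2 relative Egr3 was at the floor of 32 on both BCR-ABL1 GFP-positive arrays, against 1039.6 ± 65.6 in splenic cells. The AP-1 subunit Fos had 123 ± 11.0 against 978 ± 34.1 (-2.99 ± 0.16, adjusted p = 2.35e-06, limma), and Egr1 had 1182 ± 39.6 against 2547 ± 97.9 (-1.11 ± 0.065, adjusted p = 4.66e-06, limma). Other genes of the same list ran with Dusp5, Dusp6 and Etv5, so the list as a whole had no single direction. Among them, also chosen after their values were seen, were Lif (1279 ± 101 against 125 ± 1.77), Epha2 (260 ± 8.89 against 72.6 ± 13.4) and Ccnd1 (545 ± 3.59 against 193 ± 23.7). Tissue, oncogene and stimulation cannot be told apart here.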
